A study of Homo sapiens with 10 samples.

Results

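The EGF family of ligands and its ERBB receptors were read in MCF10A cells, a non-transformed human breast epithelial line. The 10 genes described here were chosen by symbol and comprise 6 ligands (AREG, EREG, HBEGF, TGFA, BTC and NRG1), 3 receptors (EGFR, ERBB2 and ERBB3) and the intracellular inhibitor ERRFI1. All 10 were found among the 26256 genes of the untreated libraries and among the 55736 genes of the Nutlin-3a experiment. G12V cells are MCF10A cells that received the G12V HRas oncogene from a lentivirus, together with a GFP vector, and were selected with hygromycin as a population. There were 2 libraries of MCF10A and 2 of G12V cells, neither given Nutlin-3a or DMSO. In the other experiment parental MCF10A cells received 10 µM Nutlin-3a, which keeps MDM2 from binding p53, or its solvent DMSO for 4 h, with 3 libraries of each. All the cells were kept in medium with 20 ng/ml EGF, insulin, hydrocortisone, cholera toxin and horse serum, EGF being a ligand of EGFR. The submitters' labels call the replicates biological but do not say whether the G12V libraries came from separate transductions. If they came from 1 transduction, p-values may measure only the spread within 1 transduced population.

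EGF family ligands are made as membrane-anchored precursors, and metalloproteases of the ADAM group release them from the cell surface. AREG, EREG, HBEGF, TGFA and BTC bind EGFR, several of them also ERBB4. Neuregulins bind ERBB4, and some, NRG1 among them, also bind ERBB3. ERBB2 has no known ligand of its own and acts as a partner of the other receptors, while ERBB3 has little kinase activity and signals through its partners. Active receptors pass their signal to RAS and the MAP kinases, and in breast epithelium AREG and EGFR are known for their part in growth of the mammary ducts.

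Total counts per library were 21538593 to 23683975 in the untreated cells and 15453226 to 17378734 in the Nutlin-3a experiment. Counts were scaled by edgeR's TMM method to CPM, the reads of a gene relative to the scaled library total. A gene is called differentially expressed (DE) at an adjusted p under 0.05 in edgeR's quasi-likelihood test with an absolute log2 fold change above 0.5. HRAS, which counts the introduced and the endogenous transcript together, had 65.9 to 72.6 CPM in MCF10A and 515 to 631 CPM in G12V cells. MDM2 and CDKN1A, both p53 targets, were DE and higher with Nutlin-3a. Of 9 tested epithelial markers 6 were DE and lower in G12V cells, where 5.95% of all tested genes were, among them CDH1, with 4390 and 5406 reads in MCF10A and 10 and 12 in G12V cells. The summed level of all 10 epithelial markers was 9572 to 13528 CPM in MCF10A and 1856 to 2746 CPM in G12V cells. Of 8 tested mesenchymal markers 4 were DE and higher, where 5.01% of all tested genes were, and the list of 12 summed to 854 to 1073 CPM and 1448 to 1881 CPM. Among these, COL1A2, COL3A1 and THY1 had at most 3 reads in any untreated library, as had the leukocyte markers PTPRC and CD3E. The macrophage marker CD68 was DE and higher, with 12.3 and 12.1 CPM in MCF10A and 37.3 and 72.7 CPM in G12V cells, and CD14, at 18.0 to 39.6 CPM, was not DE. None of 3 tested endothelial markers was DE. The part that these marker changes have in the results below was not tested. In a bulk library a smaller share of cells that use a gene and less RNA per cell cannot be told apart.

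In G12V cells 1 of the 10 genes, the ligand EREG, rose and 2 receptors, EGFR and ERBB3, fell. EREG was 15.2-fold higher, EGFR 3.41-fold lower and ERBB3 6.71-fold lower than in MCF10A cells (n = 2 each). AREG, the ligand next to EREG on chromosome 4, had a 3.99-fold higher mean that did not pass the test. The remaining 6 genes also did not pass it. Thus 3 of 10 genes were DE where 11.0% of all 14376 tested genes were, with 1 higher against 5.01% of all genes and 2 lower against 5.95%. The median absolute log2 fold change was 0.76 over the 10 genes and 0.36 over all tested genes. Groups did not overlap for 7 of the 10, where 54.8% of all tested genes had groups apart, so this count is close to the background.

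**Figure D1:**
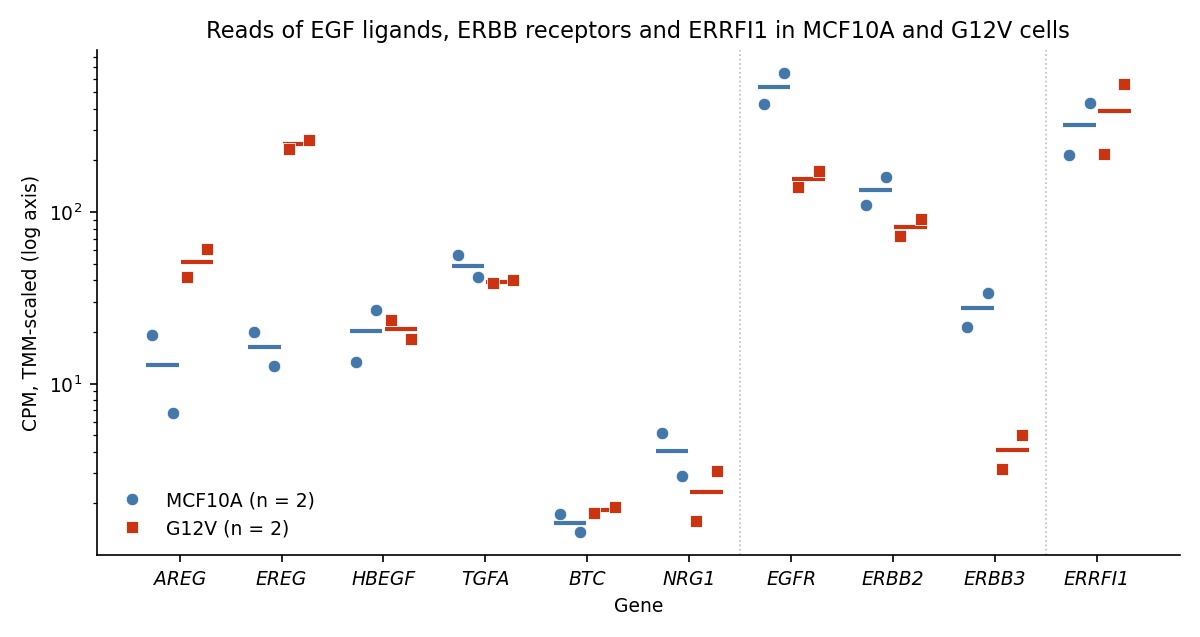
CPM of each gene on a log axis in the 2 MCF10A libraries (circles) and the 2 G12V libraries (squares), with horizontal bars at the group means and dotted lines between ligands, receptors and ERRFI1. EREG sits at 233 and 264 CPM in G12V against 20.0 and 12.6 CPM in MCF10A cells, while both EGFR and ERBB3 are lower in each G12V library than in each MCF10A library.

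EREG, on chromosome 4 from 75230860 to 75254477 (hg19, plus strand), encodes epiregulin, a ligand of EGFR and ERBB4. It had 441 and 287 reads (20.0 and 12.6 CPM) in MCF10A cells and 5453 and 5909 reads (233 and 264 CPM) in G12V cells. Every G12V library was thus far above both MCF10A libraries, and the G12V libraries differed little from each other. The difference was 3.93 on the log2 scale (SE 0.29), with an edgeR adjusted p of 0.00159. It was 3.63 to 4.32 when 1 library was left out, and without MCF10A replicate 1 the adjusted p was 0.0548, so that the call was lost there.

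AREG, from 75310815 to 75320726 on the same strand, encodes amphiregulin, an EGFR ligand. It had 420 and 153 reads (19.1 and 6.74 CPM) in MCF10A cells and 977 and 1372 reads (41.8 and 61.2 CPM) in G12V cells. The groups did not overlap, but the MCF10A libraries lay far apart from each other. On the log2 scale the difference was 1.995 (SE 0.50), which was not DE in the quasi-likelihood test of edgeR (adjusted p = 0.0590) but was DE with DESeq2 (adjusted p = 3.95e-04) and with edgeR's exact test (adjusted p = 0.00192). Without MCF10A replicate 1 it was 2.95 and without MCF10A replicate 2 it was 1.43. A near-identical copy that is annotated on hg19 as AREGB has no row in this table, so reads that fit both places of that build may have been left out of the AREG counts.

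The 250 bases before the start of EREG, AREG and EGFR are shown because EREG and EGFR moved in opposite directions and AREG adjoins EREG. They were taken from RefSeq on GRCh38.p14, at chr4:74364895-74365144, chr4:74444886-74445135 and chr7:55018767-55019016, all on the plus strand and written 5′ to 3′. Capitals mark the cAMP response element TGACGTCA, which is its own reverse complement.
EREG: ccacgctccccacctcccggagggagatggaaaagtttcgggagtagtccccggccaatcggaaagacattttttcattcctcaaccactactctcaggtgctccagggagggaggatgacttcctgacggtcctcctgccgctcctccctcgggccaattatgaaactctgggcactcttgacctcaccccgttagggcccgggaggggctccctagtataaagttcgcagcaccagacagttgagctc
AREG: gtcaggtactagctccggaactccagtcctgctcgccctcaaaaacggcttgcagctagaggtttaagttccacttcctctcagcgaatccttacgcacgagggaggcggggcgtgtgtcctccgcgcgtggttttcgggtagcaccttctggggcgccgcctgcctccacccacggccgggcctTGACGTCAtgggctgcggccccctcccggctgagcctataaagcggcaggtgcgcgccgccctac
EGFR: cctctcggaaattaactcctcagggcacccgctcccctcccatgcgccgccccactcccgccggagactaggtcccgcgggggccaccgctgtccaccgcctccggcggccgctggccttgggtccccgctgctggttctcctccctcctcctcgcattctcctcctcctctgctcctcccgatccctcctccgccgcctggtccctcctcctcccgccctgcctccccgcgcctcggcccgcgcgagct
AREG has this element once, its first base lying 65 bases before the start, and the other windows shown here do not have it. Of 35116 RefSeq promoter windows of this length 1.65% hold it. The AP-1 motif TGACTCA (4.20% of all windows), the ETS motif CCGGAAG (8.52%) and the p53 half-site (5.57%), searched on both strands and not overlapping the element above, had no match in these windows. Of the 10 genes 8 had a promoter entry, and among the others of these the ERBB2 window held the ETS motif 2 times, 26 and 14 bases before the start, while a second EGFR entry, for a start inside the gene, held the AP-1 motif 2 times.

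EREG and AREG stand with EPGN, which encodes epigen, another EGFR ligand, in 1 cluster on the same strand, 48.3 kb between EPGN and EREG and 56.3 kb between EREG and AREG. On hg19 BTC lies 351 kb beyond AREG on the opposite strand. EPGN had 133 and 76.2 CPM in MCF10A and 142 and 190 CPM in G12V cells. Its difference of 0.67 (log2, SE 0.31) did not pass in edgeR (adjusted p = 0.251). Of 14 genes that start within 600 kb of the AREG start, 8 could be tested. EREG and the chemokine genes CXCL1, CXCL2 and CXCL3 were DE and higher, at log2 fold changes of 3.93, 4.67, 4.32 and 5.86, and the other 4 tested genes were not DE. The window was chosen with these values known and is given as a description.

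**Figure D2:**
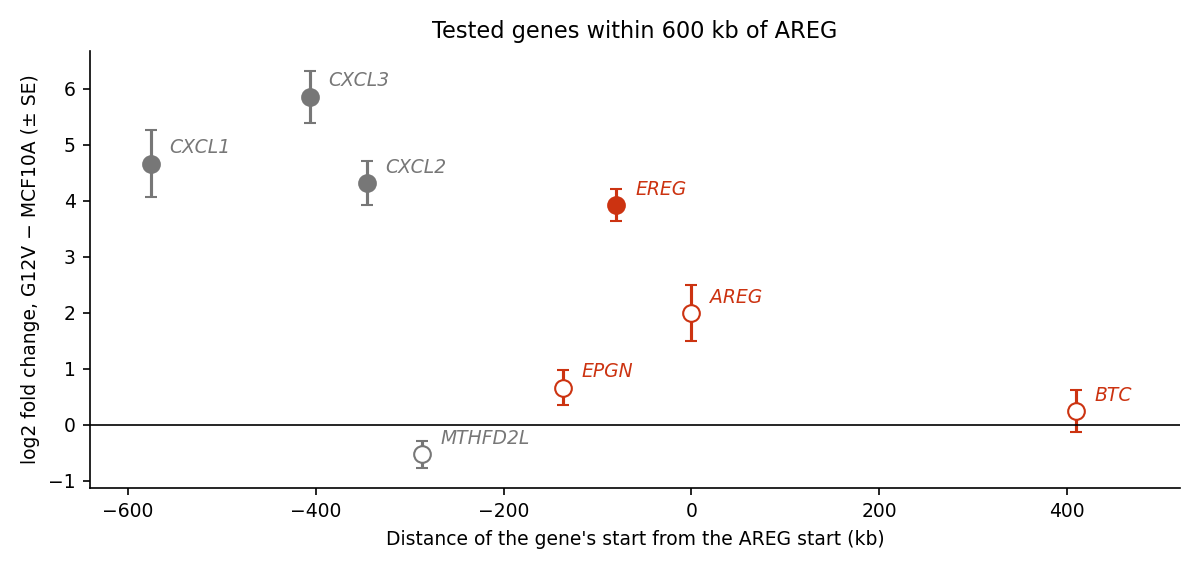
Log2 fold change of G12V against MCF10A cells, with bars of 1 SE, for the 8 tested genes within 600 kb of AREG, by the distance of each gene's start from the AREG start in kb. Filled points are DE, and EGF family ligands are in red. EREG and 3 chemokine genes lie between 3.93 and 5.86, AREG at 1.995 and EPGN at 0.67, while BTC (0.25) and MTHFD2L (-0.53) lie nearest to 0.

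The other 4 ligands did not pass the test in G12V cells. HBEGF, which encodes heparin-binding EGF-like growth factor, had 13.5 and 27.0 CPM in MCF10A and 23.5 and 18.2 CPM in G12V cells. The groups overlapped, at a log2 fold change of 0.05 (95% interval -0.86 to 0.95), and the sign depended on which library was left out. TGFA, for transforming growth factor alpha, had 55.9 and 41.8 CPM in MCF10A and 38.6 and 40.1 CPM in G12V cells, and differed by -0.31 (log2, 95% interval -0.84 to 0.22). Its groups were apart by less than 2 CPM. BTC, for betacellulin, had 31 to 43 reads in each of the 4 libraries, a log2 fold change of 0.25 (95% interval -0.66 to 1.15). NRG1, for neuregulin 1, had 113 and 66 reads in MCF10A and 37 and 69 in G12V cells, and these groups overlapped. The intervals of NRG1 (-1.97 to 0.40), BTC and HBEGF leave room for changes of about 2-fold or more in at least 1 direction.

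Among the receptors, EGFR, on chromosome 7 from 55086725 to 55275031 (plus strand), encodes the receptor of EGF itself. It had 9355 and 14663 reads (425 and 646 CPM) in MCF10A cells and 3285 and 3888 reads (140 and 173 CPM) in G12V cells. Both G12V libraries were well below both MCF10A libraries. EGFR changed by -1.77 on the log2 scale (SE 0.28), with an adjusted p of 0.0143 from edgeR. An antisense gene, EGFR-AS1, lies within it and had at most 9 reads. The strand setting of the counts is not given, so this number does not limit how many EGFR reads over the shared bases were left out.

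ERBB3, on chromosome 12 from 56473809 to 56497291 (plus strand), encodes a receptor of NRG1. It had 472 and 764 reads (21.5 and 33.6 CPM) in MCF10A and 74 and 113 reads (3.16 and 5.04 CPM) in G12V cells. Again no G12V library came near an MCF10A library. ERBB3 changed by -2.75 on the log2 scale (SE 0.37), with an adjusted p of 0.00902 from edgeR. Parental cells of the other experiment, given DMSO and normalized separately, had 5.46 to 10.7 CPM, between the levels of these groups. Without MCF10A replicate 1 neither receptor was DE, at log2 fold changes of -2.02 for EGFR (adjusted p = 0.0825) and -3.02 for ERBB3 (adjusted p = 0.0940). In that fit, where the lone MCF10A library is assumed to vary like the G12V libraries, 0 genes of all were DE and 2830 had an unadjusted p under 0.05.

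ERBB2, on chromosome 17 from 37844337 to 37884915 (plus strand), had 110 and 160 CPM in MCF10A and 72.1 and 90.9 CPM in G12V cells. The groups did not overlap. The difference of -0.73 (log2, SE 0.25) was not DE in edgeR (adjusted p = 0.129). PGAP3, which starts 0.014 kb away on the opposite strand, was DE and lower at -1.66 (SE 0.34), and MIEN1, 0.494 kb from the other end, was not DE. ERBB4, the fourth receptor, had 0 reads in all 4 untreated libraries, which allows at most 0.128 to 0.136 CPM per library.

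ERRFI1, on chromosome 1 from 8071779 to 8086393 (minus strand), encodes MIG6, which binds and inhibits active EGFR and ERBB2. It had 215 and 431 CPM in MCF10A and 219 and 559 CPM in G12V cells. The groups overlapped almost wholly, and replicate 2 was the higher one in each group. The difference of 0.27 (log2, SE 0.51) had an interval from -0.99 to 1.52 and an adjusted p of 0.818 in edgeR.

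**Figure D3:**
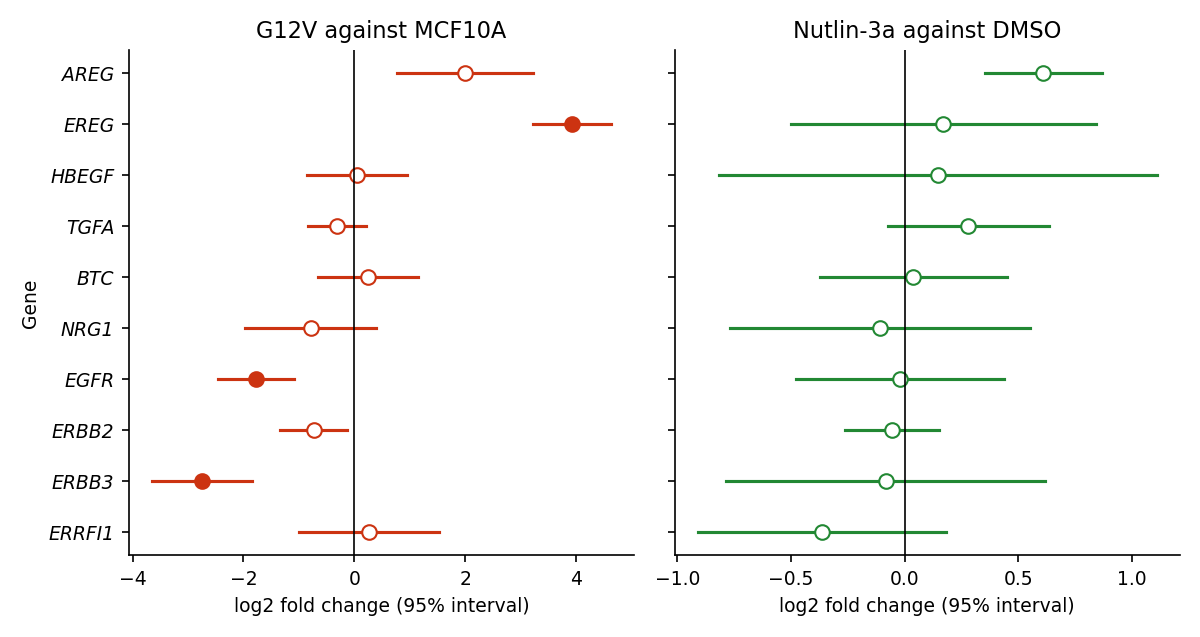
Log2 fold change with its 95% interval from edgeR for each of the 10 genes, in G12V against MCF10A cells (left) and Nutlin-3a against DMSO (right, with a narrower axis). Filled points are DE. EREG stands at 3.93, EGFR at -1.77 and ERBB3 at -2.75 on the left, and on the right AREG alone, at 0.61, has an interval that leaves out 0.

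To compare levels between genes, CPM were divided by the length of the main transcript, as far as it lies within the gene as the table outlines it. NRG1 was left out, since that outline holds only 9.31% of its main transcript. In MCF10A cells the order by CPM per kb was ERRFI1 (104, range 69.5 to 139), EGFR (95.6, range 75.9 to 115), ERBB2 (29.6, range 24.1 to 35.1), TGFA (11.9), AREG (10.5), HBEGF (8.57), ERBB3 (4.91), EREG (3.54) and BTC (1.32). Neighbours in this order had overlapping ranges except EGFR and ERBB2, ERBB2 and TGFA, and EREG and BTC. EREG, second to last in MCF10A cells, came second in G12V cells at 53.8 CPM per kb (range 50.5 to 57.1), after ERRFI1 (126, range 70.7 to 180.4) and before AREG (41.7, range 33.9 to 49.6). EGFR (28.0, range 25.1 to 31.0) then stood below both ligands, followed by ERBB2 (17.9), TGFA (9.55), HBEGF (8.85), BTC (1.56) and ERBB3 (0.731). In G12V cells only TGFA and HBEGF had overlapping ranges among neighbours in the order.

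Over 10 ligand genes of the family, again without NRG1, the sum was 61.0 to 91.4 CPM per kb in MCF10A and 162 to 199.9 in G12V cells. EREG made up 4.49% to 4.75% of it in MCF10A and 28.6% to 31.3% in G12V cells. The share of AREG was 8.95% to 16.9% and 20.9% to 24.8%, and that of EPGN 46.6% to 54.4% and 32.9% to 35.4%. TGFA went from 14.9% to 16.6% of the sum to 4.87% to 5.80%, although its own level did not pass the test, because the sum was larger. The sum of EGFR, ERBB2 and ERBB3 was 104 to 156 CPM per kb in MCF10A and 41.5 to 51.8 in G12V cells, of which EGFR was 73.1% to 73.7% and 59.8% to 60.5%. These sums and shares are a description with no test.

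**Figure D4:**
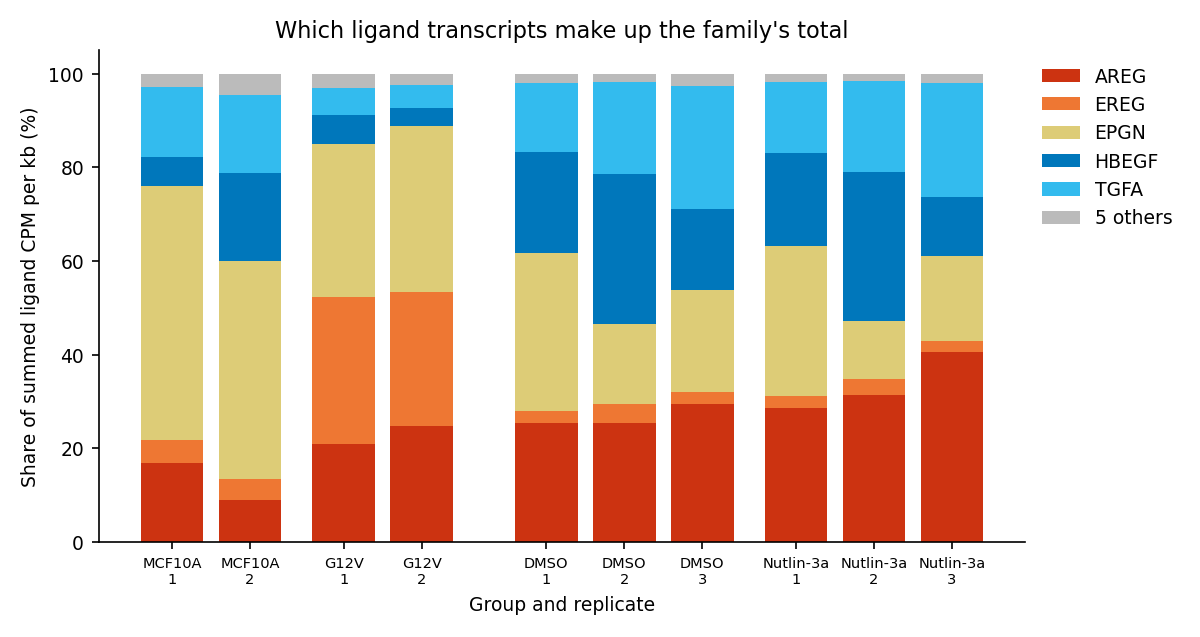
Share of each ligand gene in the summed CPM per kb of 10 EGF family ligands, in percent, as 1 stacked bar per library. EREG (orange) takes 31.3% and 28.6% in the G12V libraries and 4.49% to 4.75% in the MCF10A libraries. In the other experiment it takes 2.47% to 4.01% with DMSO and 2.38% to 3.36% with Nutlin-3a. There the outline of EPGN holds 44.6% of its main transcript, against 100% in the untreated libraries, so shares are not comparable between experiments.

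A list of 49 further genes of the pathway, with other ligands, sheddases, genes that control the receptors, and adaptors, was read in the same fit. Of 47 tested in the untreated cells, 3 were DE and higher and 5 were DE and lower, beside 5.01% and 5.95% of all tested genes, with a median log2 fold change of 0.04. Among the other ligands, NRG4, a neuregulin that binds ERBB4, rose from 25 and 14 reads to 99 and 85 reads, a log2 fold change of 2.19 (SE 0.43). EGF had 7 to 20 reads, NRG2 48 to 121 and NRG3 none, and neither EGF nor NRG2 passed the test. EGF transcripts were thus scarce in both groups.

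Of 10 genes for ligand shedding, ADAM12, a metalloprotease, rose and TIMP3, an inhibitor of such proteases, fell. ADAM12 had 15.6 and 12.7 CPM in MCF10A and 137 and 106 CPM in G12V cells (log2 difference 3.10, SE 0.23). TIMP3 had 6980 and 8047 reads in MCF10A but 17 and 11 reads in G12V cells (log2 difference -9.09, SE 0.31). The groups were fully apart for both genes. ADAM17, the main sheddase of AREG, EREG, HBEGF and TGFA, had a log2 fold change of 0.24 (SE 0.20) and was not DE.

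Among 14 genes that control the receptors, the phosphatase PTPRJ rose, from 48 and 39 reads to 689 and 724 reads, a log2 fold change of 3.98 (SE 0.28). CBLC, a ubiquitin ligase of the CBL family, fell from 548 and 422 reads to 20 and 31 reads (-4.28, SE 0.38), and LRIG3, a membrane protein of the LRIG family, fell from 36.8 and 52.3 CPM to 19.1 and 19.4 CPM (-1.21, SE 0.24). LRIG1, which lowers the amount of ERBB receptors, had nearly the same log2 fold change, -1.21 (SE 0.42), with a wider spread, and was not DE. Of 19 adaptors and downstream genes GRB7 and GAB1 fell. GRB7, which binds ERBB2 and ERBB3, had 29.3 and 97.6 CPM in MCF10A and 2.18 and 6.02 CPM in G12V cells (log2 difference -3.95, SE 0.74). GAB1, a docking protein, had -1.48 (SE 0.33). These 8 DE genes had edgeR adjusted p-values of 3.37e-04 to 0.0413. Parental cells with DMSO, normalized separately, had 2.28 to 8.02 CPM of GRB7, which overlaps the range in G12V cells. For NRG4 they had 4.23 to 6.58 CPM, against 3.79 to 4.23 CPM in G12V cells, on different outlines of the gene. The DMSO ranges of ADAM12, TIMP3, PTPRJ, CBLC, LRIG3 and GAB1 did not overlap those of G12V cells. Of all tested genes 1575 were DE in the main fit of G12V against MCF10A cells, 2307 with DESeq2 and 2536 with edgeR's exact test. The list held 13 DE genes with DESeq2 and 13 with edgeR's exact test, and without MCF10A replicate 1 none, with 16 at an unadjusted p under 0.05.

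After 4 h of Nutlin-3a none of the 10 genes was DE by the quasi-likelihood test, where 0.170% of the 13529 tested genes were. At an unadjusted p under 0.05 there was 1, AREG, and it was also the 1 gene DE with DESeq2 and with edgeR's exact test. AREG was 1.53-fold higher with Nutlin-3a. Its groups did not overlap, which held for 8.07% of all tested genes. Judged from the counts, the replicate numbers were taken to pair the libraries of this experiment. With the number as a block AREG was DE, where 1.22% of all tested genes were.

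AREG had 70.1, 70.4 and 59.8 CPM with DMSO and 93.7, 103 and 110 CPM with Nutlin-3a. Every Nutlin-3a library was above every DMSO library, and within replicates 1, 2 and 3 the log2 ratio was 0.42, 0.54 and 0.87. The log2 fold change was 0.61 (SE 0.11, edgeR adjusted p = 0.170) without the block and 0.61 (SE 0.09, adjusted p = 0.00523) with it. It was 0.54 to 0.67 over all the alternatives, with adjusted p-values from 0.00150 to 0.640. In this table AREGB has a row of its own with 0 to 2 reads, and reads that fit both copies could have been lost from either.

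TGFA had 134, 181 and 178 CPM with DMSO and 168, 211 and 220.0 CPM with Nutlin-3a, higher in 3 of 3 pairs, at a log2 fold change of 0.28 that was not DE without or with the block (adjusted p = 0.0781 with it). ERRFI1 had 96.4, 118 and 74.1 CPM with DMSO and 71.4, 98.8 and 53.6 CPM with Nutlin-3a, lower in 3 of 3 pairs. With the block its log2 fold change of -0.38 (SE 0.08) reached an edgeR adjusted p of 0.0327 but not the fold that a DE call needs. The groups of both genes overlapped, with replicate 1 the lowest for TGFA and replicate 3 the lowest for ERRFI1 in each group.

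EREG, the ligand that rose in G12V cells, had 25.4, 41.5 and 19.1 CPM with DMSO and 31.7, 40.9 and 24.1 CPM with Nutlin-3a (log2 fold change 0.17, 95% interval -0.50 to 0.84). HBEGF had 66.8 to 170 CPM with DMSO and 65.1 to 198 CPM with Nutlin-3a, and in both groups replicate 2 was the highest and replicate 3 the lowest. BTC had 98 to 128 reads and NRG1 30 to 50 reads per library. None of these ligands had groups apart.

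The receptors had overlapping groups as well. EGFR had 410, 576 and 453 CPM with DMSO and 579, 488 and 353 CPM with Nutlin-3a, higher in 1 of 3 pairs, at a log2 fold change of -0.02 (95% interval -0.48 to 0.44). ERBB2 had 86.1 to 87.4 CPM with DMSO and 80.3 to 87.4 CPM with Nutlin-3a, and its interval of -0.26 to 0.15 was the narrowest of the 10. MIEN1, which overlaps ERBB2 on the opposite strand in this annotation, had up to 459 reads against up to 1570 for ERBB2. ERBB3 had 83 to 193 reads per library and an interval of -0.78 to 0.62. ERBB4 had 0 to 2 reads. Of the 49 pathway genes 46 were tested, none was DE by the quasi-likelihood test, none had an unadjusted p under 0.05, and the groups of none were apart.

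**Figure D5:**
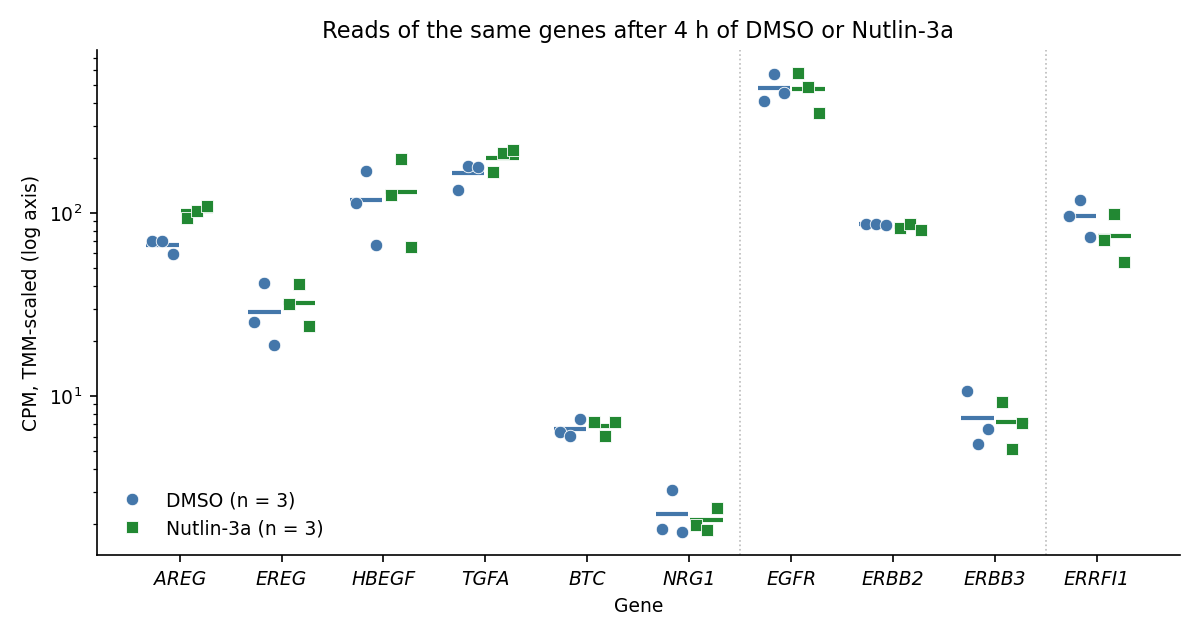
CPM of each gene on a log axis in the 3 DMSO libraries (circles) and the 3 Nutlin-3a libraries (squares), with horizontal bars at the group means and dotted lines between ligands, receptors and ERRFI1. AREG, at 59.8 to 70.4 CPM with DMSO and 93.7 to 110 CPM with Nutlin-3a, is the 1 gene whose groups do not overlap.

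Parental MCF10A cells were read in both experiments, which were normalized separately on different annotations, so the levels are set side by side with no test. AREG had 12.9 ± 8.73 CPM (SD, n = 2) in untreated MCF10A and 66.8 ± 6.04 CPM (SD, n = 3) with DMSO. HBEGF had 20.2 ± 9.55 CPM (SD, n = 2) and 117 ± 51.6 CPM (SD, n = 3), and ERRFI1 had 323 ± 153 CPM (SD, n = 2) and 96.0 ± 21.7 CPM (SD, n = 3). EGFR had 536 ± 156 CPM (SD, n = 2) and 480 ± 86.0 CPM (SD, n = 3), although only 56.5% of its main transcript lies within its outline in the untreated table and 99.0% in the other. AREG was the first of the genes, NRG1 left out, by CPM per kb with DMSO (54.1, range 48.5 to 57.0) and with Nutlin-3a (82.6, range 76.0 to 88.8), but with DMSO its range overlapped those of HBEGF (28.3 to 72.1) and EGFR (41.9 to 58.8), and with Nutlin-3a that of HBEGF (27.6 to 84.0).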

How the data were processed

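Poly(A) RNA was sequenced from 10 libraries. Per the labels and the study's methods, the authors aligned reads to hg19 with TopHat, used HTSeq to count reads in each gene, and deposited the raw counts with no normalization, in 1 table for the untreated cells and 1, on another annotation, for the Nutlin-3a experiment. The strand setting is not given in the sources used here. The intervals of log2 fold changes come from the quasi-likelihood fit and include the estimated spread between libraries. The limit given for ERBB4 covers counting error only.

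Each comparison was fitted to the counts of its own libraries, over all genes, with edgeR 4.0.16 (R 4.3.3): filterByExpr, TMM factors, the quasi-likelihood F-test and Benjamini-Hochberg adjustment over all tested genes, with a prior count of 0.125. A standard error is the size of the log2 fold change divided by the root of F. An exact permutation test could not go below p = 0.333 with 2 against 2 libraries or 0.1 with 3 against 3. As alternatives, DESeq2 1.42.0 and the exact test of edgeR were run, and further other scaling factors, other filters, a prior count of 2, no minimum fold change, the replicate number as a block, and each library left out in turn.

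DMSO and Nutlin-3a libraries with the same number deviated together from their group means (correlations 0.641, 0.649 and 0.676). Differently numbered ones had correlations of -0.499 to -0.206. Deviations within a group cancel out, so these negative values follow in part from the positive ones and are no separate evidence. The numbers were taken from these same counts to pair the libraries, which the labels do not state. Members, lists and the rule for named genes (all 10 genes, DE genes of the lists, other ligands and ERBB4, neighbours, and HRAS, MDM2 and CDKN1A) were chosen with earlier results of these data known. Transcript lengths are exons of the MANE Select transcripts in GENCODE on GRCh37, clipped to the span that each table gives the gene. Promoter windows came from RefSeq (GRCh38.p14). Python 3.11.15 with pandas 2.3.3 and matplotlib 3.10.9 drew the figures. A marker gene of 1 list is not reported here.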

Additional observations from a re-analysis of the deposited data

How the results depend on the processing

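In G12V against MCF10A cells 2536 genes were DE by the exact test of edgeR, and 0 to 2129 when 1 library was left out, the 0 being without MCF10A replicate 1. Among the 10 genes 0 to 4 were then DE, and among the pathway genes 0 to 10, with 13 by DESeq2 and 13 by the exact test. With DESeq2 2307 of all tested genes were DE. Same-numbered libraries of this comparison correlated at 0.535 in their deviations, with only 2 pairs, too few to decide whether the numbers pair them. In the fit blocked on replicate number, 4158 genes, 5 of the 10 and 19 pathway genes were DE, the 2 added among the 10 being AREG (adjusted p = 9.96e-04) and ERBB2 (-0.71, adjusted p = 0.00170). With Nutlin-3a the DE genes numbered 88 with DESeq2, 84 with the exact test, 99 without a filter, 165 with the replicate block and 7 to 11 when 1 library was left out. Of the 10 genes 1, AREG, was DE with DESeq2, 1 with the exact test, 1 without a filter and 1 with the block, which changed no other call there.

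The sign of some log2 fold changes turned when 1 library was left out, and the cause was not tested. In G12V cells HBEGF ranged from -0.34 to 0.63 and ERRFI1 from -0.56 to 0.85. With Nutlin-3a BTC ranged from -0.021 to 0.13, EGFR from -0.19 to 0.15, ERBB3 from -0.31 to 0.25, EREG from -0.051 to 0.54, HBEGF from -0.30 to 0.52 and NRG1 from -0.24 to 0.18. EREG, EGFR and ERBB3 in G12V cells were DE in 12 of 13 alternatives and lost the call without MCF10A replicate 1. Other scaling factors turned no direction among the 10 genes. NRG1 and BTC had at most 128 reads in any library, which limits what counting can show for them.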
